A study of Mus musculus with 2 samples.

Results

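Granzymes and perforin were followed through single-cell RNA sequencing of mouse pancreatic tumours. The 9 genes Gzma, Gzmb, Gzmc, Gzmd, Gzme, Gzmf, Gzmk, Gzmm and Prf1 were taken by symbol from the 32285 genes of the count matrices, and all 9 had UMIs (unique molecular identifiers, 1 per captured RNA molecule) in both libraries. Both tumours were orthotopic allografts, grown in the pancreas from KPC cells, a mouse pancreatic cancer line. The control tumour came from KPC-shV cells and the other from KPC-shZEB1 cells, in which a hairpin targets Zeb1. According to the study's text the animals received gemcitabine, a treatment absent from the labels, which also give no strain, age or sex of the hosts. Each group was 1 tumour and 1 library, so mouse, tumour, dissociation and hairpin cannot be told apart, no test was possible and no p-value is given. Parentheses give 95% intervals of the counting error alone. A ratio above 1 means a higher value in the library labelled KPC-shZEB1.

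After filtering, 11398 and 12104 cells remained, first in the library labelled KPC-shV and then in that labelled KPC-shZEB1 (an order kept below), with a median of 3720 and 4252 UMIs per cell. T and NK cells were 466 (4.09%) and 1465 (12.1%) of them, with medians of 5468 and 4942 UMIs, and the libraries shared 46 cell barcodes. Cell groups were found by clustering without the 9 genes and were named from marker genes, as "X-like". Zeb1, the target of the hairpin, stood at 129 CPM (UMIs per 1000000 UMIs of the group; 124–134) and 171 CPM (166–176) in tumour-like cells. Its level in these counts was thus not reduced under the label KPC-shZEB1. The study also measured the lowering of Zeb1 in KPC cells and stained tumour tissue for it, which was not examined here. Every direction below is given between 2 labelled libraries and is not read as one between more and less Zeb1.

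Cytotoxic T cells and natural killer (NK) cells store granzymes, which are serine proteases, in secretory granules together with perforin. Perforin, the product of Prf1, opens the membrane of the target cell, and the granzymes that enter cleave proteins of that cell. Granzyme B cuts after aspartate, granzyme A and granzyme K cut after lysine or arginine, and granzyme M after methionine or leucine. Mice carry a row of granzyme genes beside Gzmb that includes Gzmc, Gzmd, Gzme and Gzmf, for which humans have no direct counterparts.

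The genes lie in 3 places of the mouse genome (GRCm38, GENCODE annotation). Gzmb (ENSMUSG00000015437, chr14:56258838-56262260), Gzmc (ENSMUSG00000079186, chr14:56231441-56234656), Gzmf (ENSMUSG00000015441, chr14:56205263-56211417), Gzmd (ENSMUSG00000059256, chr14:56129556-56132608) and Gzme (ENSMUSG00000022156, chr14:56117626-56120625) follow each other on the minus strand of chromosome 14. Gzma (ENSMUSG00000023132, chr13:113093825-113100981) and Gzmk (ENSMUSG00000042385, chr13:113171608-113225908) are on the minus strand of chromosome 13. Gzmm (ENSMUSG00000054206, chr10:79689020-79695261) and Prf1 (ENSMUSG00000037202, chr10:61297833-61304680) are on the plus strand of chromosome 10.

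The promoters of Gzmc, Gzmd, Gzme and Gzmf are shown because the same few cells held several of these transcripts, as described below. Each line gives the 250 bases before the RefSeq start (GRCm38.p6), 5′ to 3′ on the minus strand, with the RUNX core TGTGGT or its reverse complement ACCACA in capitals. The windows are chr14:56234658-56234907 for Gzmc, chr14:56132594-56132843 for Gzmd, chr14:56120626-56120875 for Gzme and chr14:56211408-56211657 for Gzmf, and those of Gzmd and Gzmf end a few bases inside the GENCODE gene.
Gzmc: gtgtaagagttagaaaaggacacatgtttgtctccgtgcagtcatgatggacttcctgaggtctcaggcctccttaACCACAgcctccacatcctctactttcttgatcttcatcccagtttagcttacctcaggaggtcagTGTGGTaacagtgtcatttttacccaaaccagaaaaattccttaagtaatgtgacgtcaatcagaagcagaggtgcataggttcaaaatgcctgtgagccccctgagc
Gzmd: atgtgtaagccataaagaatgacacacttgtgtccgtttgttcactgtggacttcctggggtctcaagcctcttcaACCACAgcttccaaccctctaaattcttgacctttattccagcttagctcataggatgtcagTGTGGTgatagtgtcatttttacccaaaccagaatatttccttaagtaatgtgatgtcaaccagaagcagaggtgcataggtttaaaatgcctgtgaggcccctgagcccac
Gzme: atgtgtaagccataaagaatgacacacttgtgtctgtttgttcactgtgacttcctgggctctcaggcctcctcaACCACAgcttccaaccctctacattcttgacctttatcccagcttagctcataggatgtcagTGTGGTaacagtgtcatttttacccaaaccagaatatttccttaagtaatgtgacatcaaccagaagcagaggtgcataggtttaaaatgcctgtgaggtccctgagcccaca
Gzmf: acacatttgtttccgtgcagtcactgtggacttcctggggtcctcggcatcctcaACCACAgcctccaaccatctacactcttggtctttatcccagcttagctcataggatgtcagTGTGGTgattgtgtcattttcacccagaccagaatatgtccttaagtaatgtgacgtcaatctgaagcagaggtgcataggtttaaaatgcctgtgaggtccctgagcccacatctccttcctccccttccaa
Each of the 4 windows held 2 RUNX cores, with the nearer one 108, 112, 113 and 133 bases before the start of Gzmc, Gzmd, Gzme and Gzmf. At least 1 such core stood in 14.05% of 32851 promoter windows of the same length, searched on both strands. None of the 4 held the T-box core TCACAC (12.3% of windows), the STAT core TTCNNNGAA (7.02%) or the ZEB E-box CACCTG (17.2%). Gzmb had 2 RUNX cores and 1 T-box core, Gzma 1 RUNX core and 2 ZEB E-boxes, Prf1 1 RUNX core and 1 ZEB E-box, and Gzmk 2 T-box cores and no RUNX core. A match describes letters and is no evidence of binding.

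The windows of Gzmd and Gzme were 94.8% identical, those of Gzmc and Gzme 80.9%, and those of Gzmc and Gzmb 47.5%. The Gzmd and Gzme transcripts were also 94.8% identical. Even so, the last 300 bases, which the 3′ assay reads most, shared 0 of 211 stretches of 90 bases with any other gene of the row, for each of Gzmb, Gzmc, Gzmd, Gzme and Gzmf. Over whole transcripts 8 of 827 stretches of Gzme and 19 of 875 of Gzmd were shared, so a small part of reads could be assigned to either. Gzmf overlaps the antisense gene Gm4022, and whether the counting used strand is not given in the sources used here.

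The 9 genes had 5538 and 10232 UMIs in all cells, or 54.7 and 86.0 per 1000000 UMIs. T and NK cells held 58.7% and 69.9% of these UMIs. Effector CD8 T-like cells, 40 and 137 in number, held 13.2% and 27.7%, NK-like cells 24.0% and 24.4%, and tumour-like cells 16.03% and 11.95%. The summed level was 3734 and 2452 CPM in NK-like cells (ratio 0.66, 0.61–0.70), 2136 and 2486 CPM in effector CD8 T-like cells (1.16, 1.07–1.26), and 42.9 and 42.0 CPM in tumour-like cells. Over all CD8 T-like cells it was 1370 and 1358 CPM, a ratio of 0.99 (0.92–1.06). That ratio rested on few cells: it was 1.74 without the 5 richest cells of each library and 0.49 without cells that held the proliferation genes Mki67 or Top2a. The effector ratio also drew on few cells. Under the label KPC-shZEB1, Gzmd, Gzme and Gzmf were in 3, 6 and 3 of the 137 effector cells. They gave 161, 94 and 60 of the 2835 UMIs there, and 0 of the 729 in the other library. The NK-like ratio was uneven too. It was 0.79 (0.73–0.86) in the sub-cluster led by Klra4 and Klra8 and 0.27 (0.23–0.31) in that led by Zmat4 and Klrb1b. Of the 1331 NK-like UMIs in the library labelled KPC-shV, 435 were Gzmc, and 8 cells held 425 of these.

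Within T and NK cells, where a 3′ tag is counted once per molecule whatever the transcript length, Gzma made up 49.0% and 56.2% of the granzyme and perforin UMIs. Gzmb made up 21.6% and 14.3%, Gzmc 17.4% and 9.17%, and Prf1 9.66% and 13.1%. Gzmk (1.57% and 1.495%) and Gzmm (0.492% and 0.419%) were minor in both. Gzmd, Gzme and Gzmf were 0.123%, 0.185% and 0% in the library labelled KPC-shV, and 2.29%, 1.48% and 1.59% in the library labelled KPC-shZEB1.

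**Figure D1:**
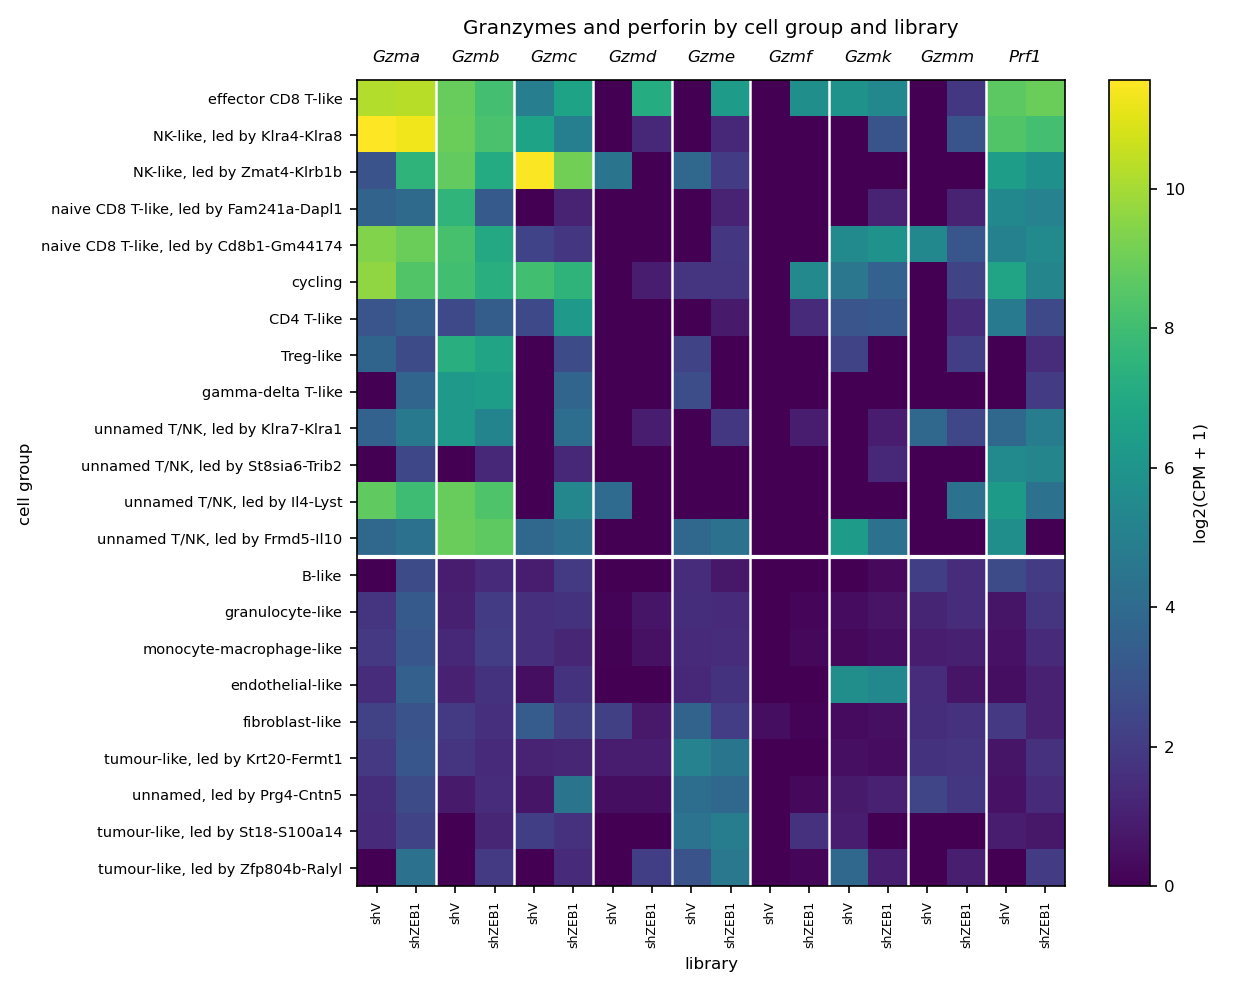
Level of each gene, as log2(CPM + 1), by cell group (rows) and library (paired columns under each gene). Brighter colours are higher levels. Gzma is brightest in NK-like cells led by Klra4 and Klra8 and Gzmc in those led by Zmat4 and Klrb1b. Gzme has a band in the tumour-like rows and Gzmk one in the endothelial-like row.

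Gzma, the granzyme with the most UMIs, was highest in the NK-like cells led by Klra4 and Klra8, at 3008 CPM (2779–3252) and 2511 CPM (2396–2631). It was found in 27 of 35 (77.1%) and 103 of 127 (81.1%) of these cells, with a median of 23 and 14 UMIs per positive cell, so it was spread over the group. Effector CD8 T-like cells came next at 1184 and 1292 CPM (ratio 1.09, 0.98–1.22), but with a very different spread. Only 5 of 40 cells held Gzma in the library labelled KPC-shV, with 244, 68, 55, 20 and 17 UMIs. In the other library 33 of 137 held it, the richest 5 with 258, 146, 140, 139 and 137 UMIs, and 16 cells with at least 10 UMIs had 1392 of the 1473 UMIs. Gzma in CD8 T-like cells was therefore a property of a small set of very rich cells in both libraries.

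Below these groups the level of Gzma was set by single cells. Cycling T and NK cells held 350 UMIs in 4 of 24 cells (802 CPM), of which 1 cell had 300, and 419 UMIs in 15 of 58 cells (343 CPM), of which 1 had 262. Naive CD8 T-like cells held 165 UMIs in 5 of 64 cells, 160 of them in 1 cell, and 206 UMIs in 21 of 238 cells, 108 of them in 1 cell. The naive sub-cluster led by Cd8b1 and Gm44174 (661 and 490 CPM) and the cycling cells changed places between the libraries. The unnamed sub-cluster led by Il4 and Lyst differed from these, with low counts in many cells: 27 UMIs in 9 of 15 cells and 38 UMIs in 10 of 38. CD4 T-like cells held 3 and 13 UMIs, and gamma-delta T-like cells 0 and 4.

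Over all CD8 T-like cells Gzma was at 753 and 718 CPM, a ratio of 0.95 (0.87–1.05). This value depended most on the choice of cells. Without the 5 richest cells of each library the ratio was 8.56 (42 and 1138 UMIs), and without cells holding Mki67 or Top2a it was 0.44 (287 and 353 UMIs). In NK-like cells the same alternatives and the others tried kept it between 0.86 and 1.01, beside 1.01 (0.92–1.11) as computed here.

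Free RNA set a floor under these shares. Granulocyte-like cells, which should lack Gzma, had a Gzma UMI in 54 of 6865 (0.787%) and 111 of 4318 cells (2.57%), at medians of 3147 and 2910 UMIs. B-like cells had it in 0 of 289 (a count of 0 limits the share to 1.04%) and in 24 of 1226 (1.96%), at medians of 3732 and 3417.5 UMIs. CD4 T-like cells had it in 3 of 65 and 12 of 240 cells and Treg-like cells in 3 of 54 and 3 of 119. Each held 1 UMI, apart from 1 CD4 T-like cell with 2. These groups were not far above the floor and no expression was read from them. The shares of NK-like cells led by Klra4 and Klra8 and of effector CD8 T-like cells (medians 5746 and 5011, and 7614.5 and 7980 UMIs) were far above it. The NK-like group led by Zmat4 and Klrb1b (medians 7339.5 and 6254) had Gzma in only 1 of 18 and 5 of 44 cells.

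**Figure D2:**
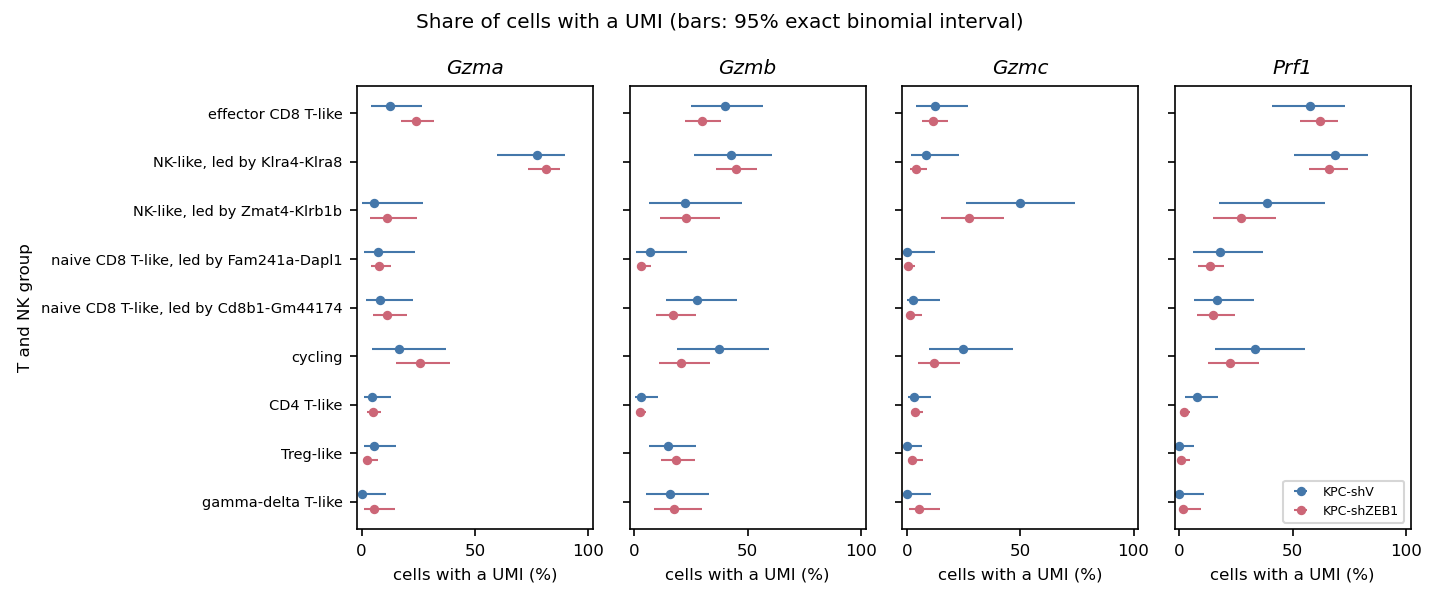
Share of cells with at least 1 UMI of Gzma, Gzmb, Gzmc and Prf1 in the T and NK groups, with 95% exact binomial intervals and 1 colour per library. Gzma is in 77.1% and 81.1% of NK-like cells led by Klra4 and Klra8, and Prf1 in 23 of 40 and 85 of 137 effector CD8 T-like cells.

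Gzmb, the granzyme that cuts after aspartate, was spread over many T and NK groups. It was found at 466 and 276 CPM in effector CD8 T-like cells (16 of 40 and 41 of 137 cells), 503 and 299 CPM in NK-like cells led by Klra4 and Klra8 (15 of 35 and 57 of 127), and 439 and 138 CPM in those led by Zmat4 and Klrb1b (4 of 18 and 10 of 44). Treg-like cells held it at 156 and 107 CPM (8 of 54 and 22 of 119 cells), and gamma-delta T-like cells at 73.5 and 87.9 CPM (5 of 32 and 10 of 57). These last groups had almost no Gzma or Prf1. The unnamed sub-clusters led by Il4 and Lyst (471 and 328 CPM, 13 of 15 and 16 of 38 cells) and by Frmd5 and Il10 (479 and 411 CPM, 7 of 16 and 2 of 9 cells) were at a like level. For the library labelled KPC-shV the intervals of these effector, NK-like and unnamed groups all overlapped, from 318 to 672 CPM, so no order is given among them. CD4 T-like cells had 2 and 12 UMIs, and granulocyte-like cells a UMI in 23 of 6865 and 34 of 4318 cells.

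The level of Gzmb was lower in the library labelled KPC-shZEB1 in most groups that held it. The ratio was 0.45 (0.39–0.53) over CD8 T-like cells, 0.59 (0.49–0.72) in effector and 0.18 (0.13–0.26) in naive CD8 T-like cells, 0.52 (0.43–0.64) in NK-like cells and 0.51 (0.46–0.56) over all T and NK cells. The naive value rested on few cells, as 76 of the 105 UMIs in the library labelled KPC-shV were in 2 cells (45 and 31). For Treg-like cells the interval included 1 (0.69, 0.45–1.06). The alternatives moved the CD8 T-like ratio between 0.30, without cells holding Mki67 or Top2a, and 0.50, and the NK-like ratio between 0.43 and 0.65, so the direction was the same in those tried. The richest effector cells overlapped between libraries, at 35, 28, 23, 16 and 14 UMIs against 63, 57, 35, 28 and 21. In NK-like cells the positive cells were 19 of 53 and 67 of 171, while the median positive cell held 7 UMIs and 2 UMIs.

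Gzmc was highest in a group that was named NK-like on 3 detected NK markers, against 6 in the group led by Klra4 and Klra8. The group led by Zmat4 and Klrb1b held it at 2834 CPM (2567–3121) in 9 of 18 cells and at 547 CPM (468–636) in 12 of 44 cells. The richest 5 had 136, 102, 57, 38 and 27 UMIs in the library labelled KPC-shV and 82, 39, 13, 9 and 7 in the library labelled KPC-shZEB1. The same group had Kit in 13 of 18 and 32 of 44 cells, Itga1 in 14 and 25, and Cxcr6 in 12 and 21. The T-box factor gene Eomes was in only 1 and 2 of its cells, and Cd3e, a subunit of the T cell receptor complex, in 1 and 3. Its name as NK-like is thus uncertain, and values given for all NK-like cells include it. The NK-like group led by Klra4 and Klra8 was the reverse, with Eomes in 18 of 35 and 89 of 127 cells, Cxcr6 in 0 and 1, and Gzmc at 104 and 31.2 CPM. Gzma was nearly absent where Gzmc was high: the Zmat4 and Klrb1b group held 1 Gzma UMI in 18 cells and 56 UMIs in 5 of 44 cells.

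The Gzmc ratio in NK-like cells was 0.16 (0.13–0.18), the lowest of any member tested there, and it was 0.29 without cells holding Mki67 or Top2a. Within the Zmat4 and Klrb1b group, which held 413 of the 435 and 171 of the 193 NK-like Gzmc UMIs, it was 0.19 (0.16–0.23). In CD8 T-like cells the direction was the opposite, with 11 and 118 UMIs and a ratio of 3.47 (1.87–7.14), or 1.73 when CD8 T cells were taken by marker UMIs instead of clusters. Of the 116 Gzmc UMIs that effector CD8 T-like cells held under the label KPC-shZEB1, 66 and 29 were in 2 cells. Single cells also set other counts of Gzmc: 80 of 91 UMIs in CD4 T-like cells and 96 of 118 in the unnamed cluster led by Prg4 and Cntn5 were in 1 cell each, both in the library labelled KPC-shZEB1.

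**Figure D3:**
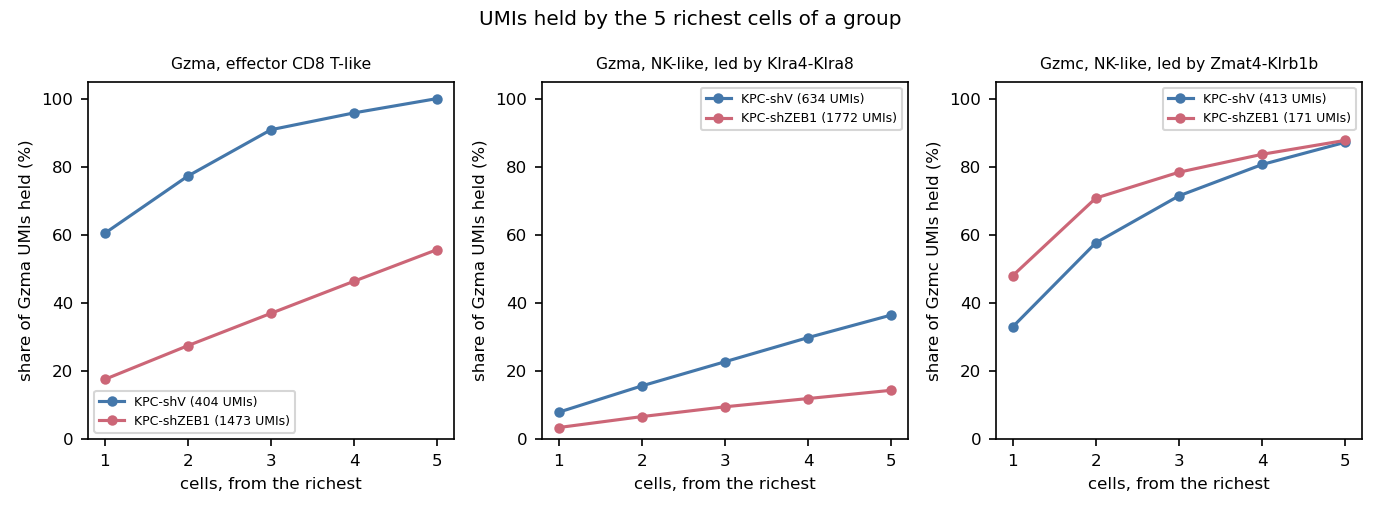
Cumulative share of a gene's UMIs in a cell group held by its 5 richest cells, by library. The 5 Gzma-positive effector CD8 T-like cells of the library labelled KPC-shV hold all 404 of its UMIs, while in the library labelled KPC-shZEB1 the 5 richest hold part of 1473.

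Gzmd, Gzme and Gzmf were absent from the 104 CD8 T-like cells of the library labelled KPC-shV and had 161, 96 and 60 UMIs in the 375 of the library labelled KPC-shZEB1. Against a floor of 3 UMIs for the library with none, these levels were at least 17.35-fold, 10.3-fold and 6.47-fold higher. The UMIs came from very few cells, with Gzmd in 3, Gzme in 6 and Gzmf in 3 of 137 effector CD8 T-like cells. Gzmd was thus in 2.19% of these cells (0.45–6.27), while 0 of 40 limits the share in the library labelled KPC-shV to 7.5%. A difference in the share of such cells was therefore not detectable with 40 cells in that library.

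The cells with at least 5 UMIs of Gzmd, Gzme or Gzmf, a threshold set after the values were seen, numbered 5 among T and NK cells, all in the library labelled KPC-shZEB1. The first, with 17737 UMIs, held 83 Gzmd, 48 Gzme, 53 Gzmf, 29 Gzmc, 35 Gzmb, 4 Gzmk and 74 Prf1 UMIs, with 7 of Cd3e and 15 of Cd8a. It was the richest in Prf1 of all effector CD8 T-like cells and held no Gzma. Another, with 8053 UMIs, held 60 Gzmd and 31 Gzme UMIs and none of Prf1, Gzmb or Cd8a. One more effector cell held 18 Gzmd, 12 Gzme and 35 Prf1 UMIs, and one held 28 Gzmb, 6 Gzma, 6 Gzmf and 3 Gzmc UMIs. The last, a cycling cell with 51430 UMIs and 15 of Mki67, held 98 Gzmc and 50 Gzmf UMIs and none of Gzmd or Gzme. Thus Gzmd came with Gzme in 3 of these cells, and Gzmf came with Gzmc in each of the 3 that held it.

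Gzme was mostly found outside lymphocytes. Tumour-like cells held 677 and 643 of its 1145 and 962 UMIs (59.1% and 66.8%), at 32.7 CPM (30.3–35.3) and 22.1 CPM (20.4–23.9), a ratio of 0.68 (0.61–0.75). It was in 163 of 1007 (16.2%) and 164 of 1274 (12.9%) tumour-like cells, and the richest cells held 29, 28, 27, 26 and 20 UMIs and 53, 35, 31, 23 and 21. At least 2 Gzme UMIs were found in 8.14% and 5.65% of tumour-like cells and in 0 of 6865 and 0 of 4318 granulocyte-like cells, which had single UMIs in 43 and 21 cells. Such cells were also in the unnamed cluster led by Prg4 and Cntn5, 20 of 496 (4.03%) and 11 of 190 (5.79%), and granulocyte-like cells were far shallower (medians 3147 and 2910 UMIs), so the part of depth in this difference was not tested.

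The cells with at least 10 Gzme UMIs, 22 and 18 in number, held 53.3% and 54.7% of the tumour-like Gzme UMIs. All of them held the epithelial keratin gene Krt18, and 21 and 15 held Epcam. A UMI of 1 of 6 T and NK cell genes was in 3 of 22 and 8 of 18 of them, and in 11.9% and 32.7% of all tumour-like cells. Prf1 was in 1 and 1. Gzmd was in 3 and 6 of them. The Gzme-positive tumour-like cells were deeper than the others (medians 31939 against 15815 UMIs and 31131 against 21814 UMIs), and the part of depth in their share was not tested. By tumour-like cluster the level was 34.2 and 21.6 CPM in the one led by Krt20 and Fermt1, and 20.2 and 28.5 CPM in the one led by St18 and S100a14. It was 23.9 CPM in the one led by Zfp804b and Ralyl, which had 223 cells in the library labelled KPC-shZEB1 and 9 in the other. The lower level in that library thus held in the Krt20 and Fermt1 cluster, with 669 and 696 cells, and not in the St18 and S100a14 cluster, where the intervals overlapped (12.9–30.0 and 20.4–38.6).

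The unnamed cluster led by Prg4 and Cntn5 held 243 and 77 Gzme UMIs (17.0 and 13.6 CPM), and fibroblast-like cells 129 and 36 (11.8 and 3.34 CPM). T and NK cells held 6 and 106, of which effector CD8 T-like cells held 0 and 94. The effector level in the library labelled KPC-shZEB1, 82.4 CPM, was thus above the tumour-like one, but 91 of its 94 UMIs were in 3 cells. Gzmd in tumour-like cells was far lower, with 16 and 42 UMIs in 8 and 18 cells, of which 7 and 12 also held Gzme.

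**Figure D4:**
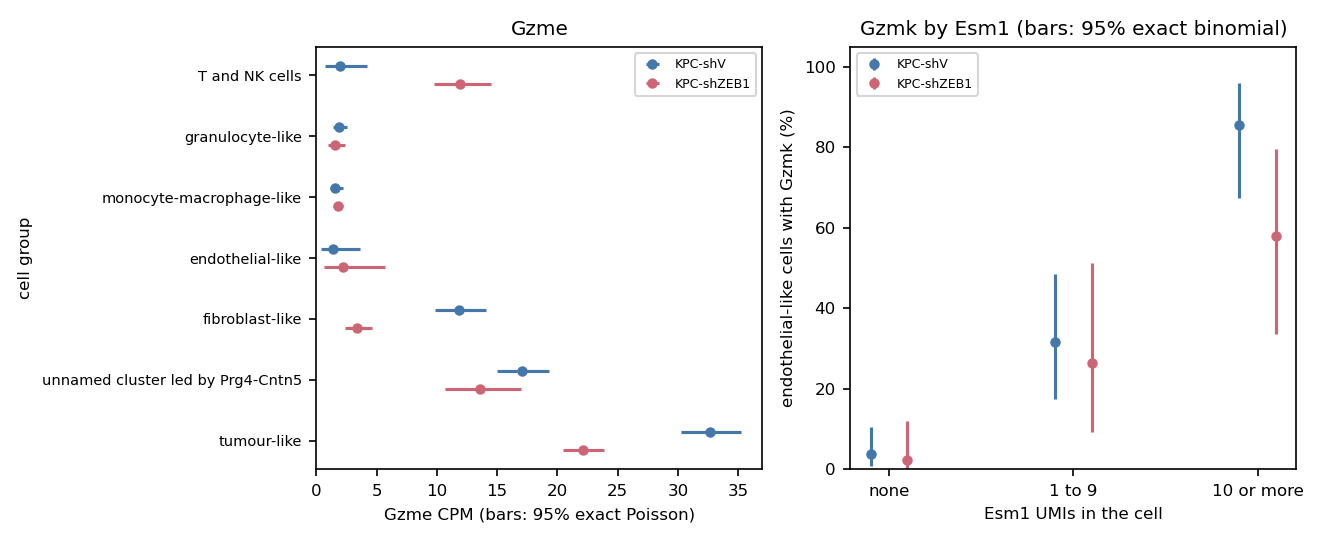
Left, Gzme CPM by cell group and library with 95% exact Poisson intervals, where tumour-like cells stand at 32.7 and 22.1 CPM, the highest of the groups drawn (T and NK cells are drawn as 1 group). Right, share of endothelial-like cells with a Gzmk UMI by the number of Esm1 UMIs in the cell, with 95% exact binomial intervals, which rises from 3.70% and 2.27% to 85.7% and 57.9%.

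Gzmk, a granzyme of memory-like CD8 T cells, had most of its UMIs of the library labelled KPC-shV in endothelial-like cells, 143 of 231 (61.9%), and 74 of 228 (32.5%) in the other library. The endothelial-like level was 50.8 and 40.9 CPM (ratio 0.80, 0.60–1.07), in 39 of 147 (26.5%) and 17 of 82 (20.7%) cells, with up to 28 and 13 UMIs per cell. In CD8 T-like cells it was 41.0 and 30.8 CPM (0.75, 0.49–1.18), in 16 of 104 and 46 of 375 cells. Effector CD8 T-like cells had 58.6 and 41.2 CPM and the naive CD8 T-like sub-cluster led by Cd8b1 and Gm44174 had 44.6 and 60.6 CPM, while the naive sub-cluster led by Fam241a and Dapl1 had 0 and 1 UMI. NK-like cells held 0 UMIs in 53 cells and 5 UMIs in 2 of 171, which set Gzmk apart from Gzma.

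The endothelial-like signal followed Esm1, an endothelial gene that lies on the opposite strand inside the span annotated as Gzmk (chr13:113209659-113218098). Esm1 was present in 36 of 39 and 16 of 17 Gzmk-positive endothelial-like cells, which held 96.5% and 98.6% of the endothelial Gzmk UMIs. The share of endothelial-like cells with Gzmk was 3 of 81 (3.70%) and 1 of 44 (2.27%) without an Esm1 UMI, 31.6% and 26.3% with 1 to 9, and 24 of 28 (85.7%) and 11 of 19 (57.9%) with at least 10. This split was chosen after the values were seen. Median depths in the 3 bins were 16592, 13770 and 33030 UMIs in the library labelled KPC-shV and 17382, 29748 and 17727 in the other, and the part of depth in the rise was not tested.

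Only 1 of 3 annotated Gzmk transcripts, Gzmk-202, extends across Esm1, and it has 0 exons inside it. The other transcripts reach only to 113180897 and 113180921. Whether strand or introns entered the counting is not given in the sources used here. The origin of the endothelial Gzmk UMIs was not tested, and the endothelial Gzmk is uncertain. Among T and NK cells Esm1 was in only 2 of 25 and 4 of 65 Gzmk-positive cells. T and NK genes were found in 6 of 39 and 4 of 17 Gzmk-positive endothelial-like cells, and the endothelial gene Pecam1 in 35 and 17.

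Gzmm was barely detected in any group. It had 203 and 204 UMIs in all cells, 16 and 30 of them in T and NK cells, and NK-like cells held 0 UMIs in 53 cells and 5 in 171. CD8 T-like cells held 10 and 7 (13.2 and 2.99 CPM), and the 10 were in 5 naive CD8 T-like cells of the sub-cluster led by Cd8b1 and Gm44174 (40.6 CPM, 19.5–74.6, against 7.58 CPM in the other library). By number of UMIs the largest counts were in the unnamed cluster led by Prg4 and Cntn5 (61 UMIs in 51 of 496 cells, and 15 in 12 of 190) and in tumour-like cells (44 and 54), which are larger and deeper groups, at 4.27 and 2.64 CPM and at 2.12 and 1.86 CPM.

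Prf1, the pore-forming member, was highest in effector CD8 T-like cells, at 398 CPM (334–471) and 496 CPM (456–539), a ratio of 1.25 (1.03–1.51). It was in 23 of 40 and 85 of 137 cells, with 31, 23, 14, 11 and 7 UMIs in the richest cells of the library labelled KPC-shV and 74, 44, 39, 35 and 27 in those of the other. NK-like cells led by Klra4 and Klra8 followed at 346 and 271 CPM (0.78, 0.59–1.04), in 24 of 35 and 84 of 127 cells with a median of 2 UMIs, and the other NK-like group held 89.2 and 54.4 CPM. The intervals of the leading pair of groups overlapped in the library labelled KPC-shV (272–436 for NK-like) and not in the other (234–312). Naive CD8 T-like cells had 36.2 and 37.6 CPM and cycling cells 105 and 36.8 CPM (0.35). Treg-like cells held 0 and 1 UMI. In effector CD8 T-like cells a part of the cells held most Prf1, as 4 and 15 cells with at least 10 UMIs had 79 of 136 and 376 of 566 UMIs. The NK-like cells led by Klra4 and Klra8 had 1 and 0 such cells.

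Over all CD8 T-like cells Prf1 was at 200 and 261 CPM (1.31, 1.09–1.57), but the direction turned to 0.82 as a mean over cells and to 0.70 without cells holding Mki67 or Top2a. In NK-like cells the ratio was 0.85 (0.66–1.10), and over all T and NK cells 1.04 (101 and 105 CPM), within counting error.

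Because every cell was read for all 9 genes, the members could be followed together. Of T and NK cells 269 of 466 (57.7%) and 927 of 1465 (63.3%) had no UMI of any member. In CD8 T-like cells 57 of 104 (54.8%) and 186 of 375 (49.6%) held at least 1. Prf1 accompanied Gzmb in 44 of 103 Gzmb-positive T and NK cells (42.7%, 33.0–52.8) and 101 of 212 (47.6%, 40.8–54.6), against 14.05% and 14.6% of Gzmb-negative cells. After each cell was thinned to 1000 UMIs these shares were 17.5% against 5.38%, and 17.4% against 6.09%, so the excess was still present at equal depth. Gzmb was in 28 of 61 (45.9%) and 91 of 221 (41.2%) Gzma-positive cells, against 18.5% and 9.73% of Gzma-negative ones, and Prf1 in 28 (45.9%) and 109 (49.3%), against 16.5% and 14.07%. All these shares pool groups that differ in Prf1, such as CD4 T-like cells (11 and 6 UMIs) and Treg-like cells (0 and 1). Thinning does not change that, and the part of cell group in the excess was not tested. Shares within single groups are given below.

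**Figure D5:**
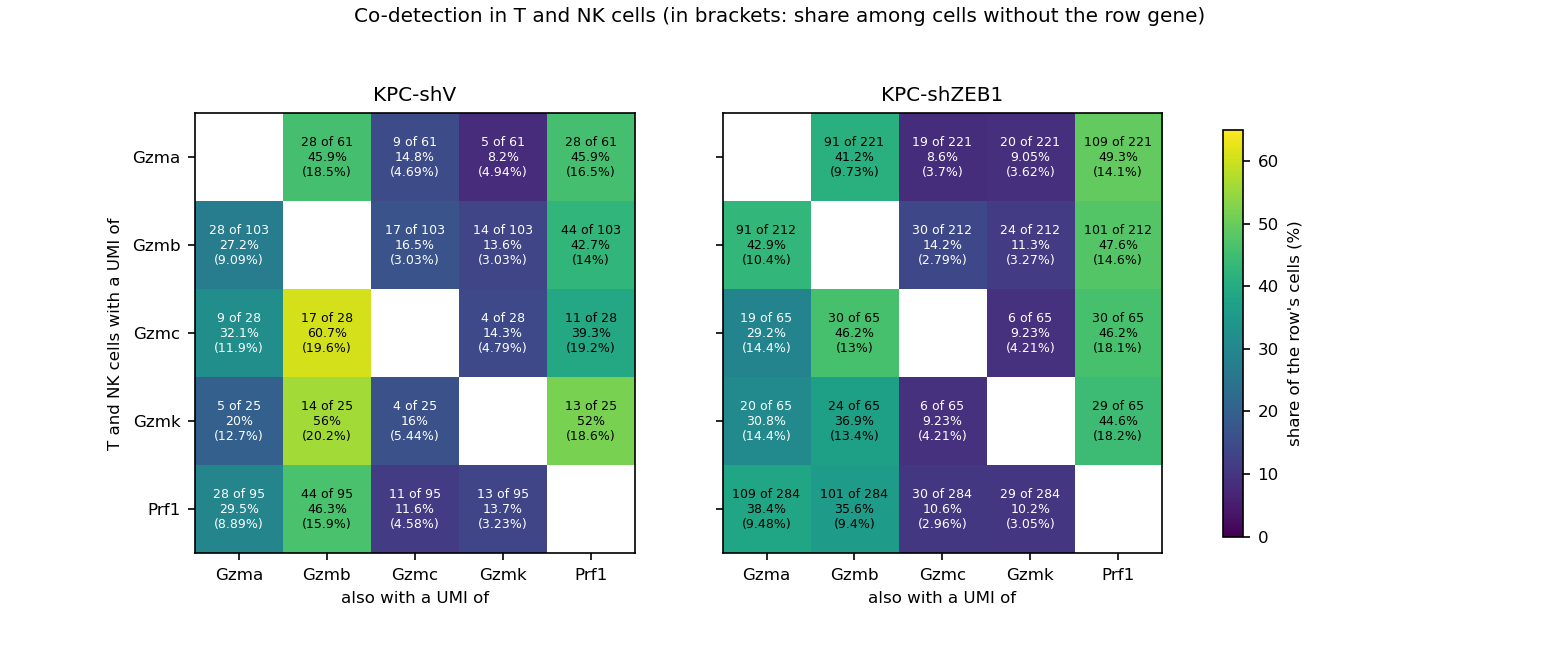
Share of T and NK cells with a UMI of the row gene that also had a UMI of the column gene, by library, with the share among cells without the row gene in brackets. Prf1 was in 42.7% and 47.6% of Gzmb-positive cells, against 14.05% and 14.6% of the others. All T and NK groups are pooled, so the shares also carry differences between groups.

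The combinations differed between NK-like and effector CD8 T-like cells. Gzma, Gzmb and Prf1 were found together in 13 of 35 (37.1%, 21.5–55.1) and 46 of 127 (36.2%, 27.9–45.2) NK-like cells led by Klra4 and Klra8. Effector CD8 T-like cells had all 3 in 0 of 40 (a count of 0 limits the share to 7.5%) and in 12 of 137 (8.76%, 4.61–14.8). In that NK-like group Gzmb was nearly always with Gzma, in 14 of 15 and 53 of 57 Gzmb-positive cells. In effector CD8 T-like cells it was with Gzma in 1 of 16 and 15 of 41, but with Prf1 in 13 of 16 and 33 of 41, against 10 of 24 and 52 of 96 Gzmb-negative cells.

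Effector CD8 T-like cells held Prf1 without Gzma or Gzmb in 8 of 40 and 45 of 137 cells, against 2 of 35 and 7 of 127 in that NK-like group. Gzma in effector cells did not come with more Prf1: 2 of 5 and 19 of 33 Gzma-positive cells held Prf1, and 21 of 35 and 66 of 104 Gzma-negative ones. In the NK-like group it did, with 22 of 27 and 76 of 103 against 2 of 8 and 8 of 24. Gzmc in effector CD8 T-like cells was with Gzmb in 4 of 5 and 13 of 16 cells, against 12 of 35 and 28 of 121 Gzmc-negative cells. Gzmk-positive T and NK cells held Prf1 in 13 of 25 and 29 of 65.

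The members were then set against all genes. Of 7117 genes with at least 50 UMIs in CD8 T-like cells, 690 (9.7%) had a ratio of at least 1.5 and 270 (3.79%) at most its inverse. Of the 9 members, 8 reached 50 UMIs, and 4 of them (Gzmc, Gzmd, Gzme and Gzmf) were higher in the library labelled KPC-shZEB1 and 1 (Gzmb) lower. Gzmd, Gzme and Gzmf passed the minimum through that library alone and so had to differ. Gzmc, with 11 and 118 UMIs, also reached it mostly through that library, so the count of higher members is not read against the background. Gzmm, with 17 UMIs, was not compared. In NK-like cells 9.6% of 4605 genes were higher by that measure and 5.78% lower. Only Gzma, Gzmb, Gzmc and Prf1 could be compared there, of which 0 were higher and 2 (Gzmb and Gzmc) lower.

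The genes that work with granzymes were compared list by list. Of 10 granule partners, which load, move or release granules, 9 could be compared in CD8 T-like cells and 8 in NK-like cells, and 1 passed 1.5-fold in either: Rab27a, which docks granules at the membrane, was lower in CD8 T-like cells (69 and 137 UMIs, ratio 0.64, 0.48–0.87). In NK-like cells Rab27a had the largest ratio of the partners, 1.47 (0.84–2.71), and Stx11 the smallest, 0.83. In CD8 T-like cells the largest ratio of the partners, 1.31, was that of Ctsc, which trims granzymes into active enzymes. The median log2 ratio of the partners was −0.10 in CD8 T-like and 0.01 in NK-like cells, beside 0.05 and 0.03 for all genes compared. The 4 granzyme inhibitors that could be compared had ratios from 0.95 for Serpinb9, the inhibitor of granzyme B, to 1.06 for Serpinb6a in CD8 T-like cells, and from 1.03 (Serpinb6a) to 1.27 (Serpinb9) in NK-like cells. None passed.

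Among 7 death ligands and cytokines 1 was lower in CD8 T-like cells, the chemokine gene Xcl1 at 554 and 213 CPM (0.38, 0.34–0.44), and the largest ratio was that of Tnf (1.42). In NK-like cells Ifng was higher at 64.5 and 119 CPM (1.84, 1.17–3.02) and Tnfsf10, the gene of TRAIL, lower (0.58, 0.37–0.93). Of 7 transcription factors 1 was lower in CD8 T-like cells, Eomes with 27 and 51 UMIs (0.61, 0.38–1.01), whose interval included 1. Zeb2 had the largest ratio there (1.13). In NK-like cells 0 of the 6 compared passed, with ratios from 0.74 (Id2) to 1.43 (Eomes).

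The next list held genes of the interleukin-2 and interleukin-15 receptors and of their signalling (Jak3, Stat5a and Stat5b), through which granzyme expression is raised in lymphocytes. Of these, 0 of 6 passed in CD8 T-like cells (from 0.78 for Il2ra to 1.19 for Stat5a). In NK-like cells 2 of 5 were higher, Il2ra (11 and 134 UMIs, 4.27, 2.31–8.75) and Stat5a (9 and 81 UMIs, 3.15, 1.58–7.14), and the smallest ratio was that of Il2rb (0.94). Both reached 50 UMIs mostly through the library labelled KPC-shZEB1, so nothing is read from their count. Gzmg and Gzmn, the remaining granzyme genes of the chromosome 14 row, had 0 UMIs in CD8 T-like and NK-like cells.

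Across 31 T and NK sub-clusters by library, the genes most like each member by Pearson's r of log2(CPM + 1) were sought among 7128 genes. For Gzma they were Ccl5 (r = 0.76), Gnptab (0.74) and Dapk2 (0.73). For Gzmb they were Gatad2a (0.74), Il2rb (0.70) and Mtmr1 (0.70), and for Gzmc Atp5d (0.78), Rfc2 (0.78) and Actb (0.76). Prf1 had Gne (0.75), Klrd1 (0.75) and Nkg7 (0.72). Points from the same library share depth and free RNA, and the members with fewer than 200 UMIs in T and NK cells were left out.

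One small group outside T and NK cells also held Gzmb. Mast-basophil-like cells had it in 0 of 2 cells and in 8 of 16 cells, with 57 UMIs (628 CPM, 476–814). None of the 8 held any of 6 T and NK cell genes, 6 held Cpa3, a mast cell protease gene, and all 8 held the leukocyte gene Ptprc. Gzmc was in 3 of the 16, with 20 UMIs, and Prf1 and Gzma had 0 and 2 UMIs.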

How the data were processed

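Single-cell suspensions of 1 tumour per group were sequenced with the 10x Chromium 3′ v3.1 kit. The authors deposited filtered matrices of raw UMI counts per gene and barcode, made with Cell Ranger 7.0.1 on mm10. Whether introns or strand entered the counting is not given in the sources used here. Following the study's methods, barcodes needed 500 detected genes and between 1000 and 60000 UMIs, of which no more than 15% could be mitochondrial. Scrublet scores above 0.2 removed 2.69% and 2.76% of cells (the study used DoubletFinder). Both libraries were clustered together without alignment (scanpy 1.11.5, leidenalg 0.10.2) on 3000 variable genes, 30 components, 20 neighbours and resolution 1. T and NK cells were clustered again on 2000 genes, 20 components and resolution 1.5. The members and the related lists, 51 genes in all, were kept out of the variable genes. Clusters were named from marker lists, and the naming thresholds were set after the data were seen. CPM have exact Poisson intervals, shares Clopper-Pearson intervals and ratios exact conditional intervals (scipy 1.17.1). A share of 0 is given with the limit that 3 counts allow. Shares were also computed after thinning each cell to 1000 UMIs. The text names the members, the extremes of each list by ratio, and the 3 genes most like a member. Self-tests on simulated data were run after the main analysis, with rates taken from its clustered cells. Values under other settings close the text. The members and lists were chosen with earlier results of these data known. One of the related lists and a detail of the tumour line are not reported here.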

Additional observations from a re-analysis of the deposited data

How the results depend on the processing

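No paired analysis was possible because each group was 1 library, and no replicate could be left out. Under other settings 70 values for single members in CD8 T-like and NK-like cells were compared. Of these, 56 stayed within the counting interval, 12 moved and 2 reversed. Values within the interval could still change side: the Gzma ratio in NK-like cells, 1.01, was 0.93 with classes taken by marker UMIs. A value counted as moved could change side too, as Gzma in CD8 T-like cells did under that setting (0.95 to 1.17). The causes were not tested. The summed CD8 T-like ratio of 0.99 became 0.77 as a mean over cells, 1.74 without the 5 richest cells and 0.49 without cells holding Mki67 or Top2a. The summed NK-like ratio of 0.66 became 0.59 with classes taken by marker UMIs and 0.81 without the 5 richest cells. The Prf1 ratio in CD8 T-like cells reversed from 1.31 to 0.82 as a mean over cells and to 0.70 without cells holding Mki67 or Top2a. NK-like cells held 19.0% and 20.6% of member UMIs with no doublet removal and 19.0% and 22.9% with no upper UMI limit, against 24.0% and 24.4%. With 2 UMIs of the same member required, 36.5% and 28.5% of CD8 T-like cells were positive, and Prf1 was in 32.9% of Gzmb-positive T and NK cells of the library labelled KPC-shV. Thinning to 1000 UMIs gave 29.8% and 25.9% for the former and 17.5% and 17.4% for the latter share. The Gzme ratio in tumour-like cells was 0.77 with no doublet removal, a setting chosen after seeing the data, against 0.68. Depth limits the small groups most: NK-like cells of the library labelled KPC-shV numbered 53, and effector CD8 T-like cells 40.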
